A study of Homo sapiens with 12 samples.

Results

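Loss of the histone methyltransferase KMT2D was followed in lymphoma cells that already carried a mutant EZH2, by setting the 3 libraries of an OCI-Ly7 double mutant line against the 2 libraries of the EZH2 mutant line. These 5 libraries were chosen by their labels from 11 libraries with a column in the deposited table, and 12 samples are listed in the series. All 8813 genes with enough counts were compared. OCI-Ly7 is an established cell line of human diffuse large B-cell lymphoma, labelled as a B cell line from a pleural effusion, and its transcripts were counted by MARS-seq, a method that reads barcoded cDNA near the 3′ end of the transcript. Per the labels, the double mutant is kmt2d-/- with EZH2 Y646N, and the EZH2 mutant carries EZH2 Y646N alone, a gain-of-function change, so that both lines share the mutant EZH2. Wild-type OCI-Ly7 and a kmt2d-/- line without the EZH2 change, with 3 libraries each, served to show the same loss in the other background. None of the lines was treated, and all mutants were made by CRISPR. The labels do not say whether a line was grown from 1 clone, nor from which line the double mutant was made, so that differences between clones and loss of KMT2D cannot be told apart. Nothing says that replicates were separate cultures, so the p-values speak of the spread between these libraries, which may be technical.

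KMT2D places methyl groups on lysine 4 of histone H3, mainly at enhancers, and its loss is common in germinal centre lymphomas. EZH2 is the catalytic subunit of PRC2 (Polycomb repressive complex 2), which methylates lysine 27 of histone H3 and holds genes silent. Mutant forms of EZH2 such as Y646N raise the trimethylated state of that lysine, and both lesions are found in lymphomas of germinal centre origin.

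The EZH2 mutant libraries held 1118710 and 2183775 counts and those of the double mutant 2165911, 1418465 and 1705894, within the range of 1118710 to 3107871 over all libraries. Within these 2 lines, log2 CPM (counts per 1e6 counts) of libraries correlated at 0.960 to 0.972, and between the lines at 0.932 to 0.971. The 2 targeted genes did not pass the test. EZH2 stood at 54.3 and 75.0 normalised CPM in the single mutant and at 91.3, 81.6 and 87.8 after loss of KMT2D (log2 fold change 0.40, SE 0.17, edgeR adjusted p = 0.27). KMT2D was at 19.5 and 41.2 against 65.6, 39.3 and 33.7 (log2 0.53, SE 0.32, edgeR adjusted p = 0.46), and a 3′ count does not check a point mutation or a small deletion. All 12 B-cell markers were present in both lines. The summed level of 16 myeloid markers was 17 and 17.4 CPM in the EZH2 mutant and 6.35 to 7.62 CPM in the double mutant, with 10 of the 16 at 0 in both lines. Of 18 T and NK cell markers 13 were at 0 in both lines, of 10 erythroid markers 8, and the T and NK sum was 248 and 266 CPM against 280 to 296 CPM. The part of such differences in the results below was not tested.

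Loss of KMT2D within EZH2 mutant cells went with more falls than rises. Of 8813 genes tested, 63 rose (0.715%) and 139 fell (1.58%), together 202 (2.29%), by edgeR's quasi-likelihood test at an adjusted p under 0.05. Among them 39 rose at least 2-fold (0.443%) and 71 fell at least 2-fold (0.806%). In the same fit, 675 genes (7.66%) were called between the KMT2D mutant and wild type, of which 280 were higher (3.18%) and 395 lower (4.48%). The 2 counts rest on different numbers of libraries. In the KMT2D mutant the genes of 19q stood low as a group, with a median log2 fold change of -0.71 against wild type, as described below. With libraries scaled by upper-quartile factors 88 genes rose and 116 fell, a share of rises of 43.1% in place of 31.2%, and with a trend on GC content removed 147 rose and 180 fell, a share of 45.0%. The count fell to 102, with 29 rises, without EZH2 mutant replicate 1 and to 99, with 36 rises, without double mutant replicate 3. Without double mutant replicate 1 the balance turned, with 126 rises and 116 falls, and without double mutant replicate 2 there were 39 rises and 98 falls.

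PREX1, a guanine nucleotide exchange factor that activates Rac, had the smallest adjusted p among the falls of over 10-fold, and NME4, a mitochondrial nucleoside diphosphate kinase, the smallest among the rises. REPIN1, with a fall of less than 10-fold, had a smaller edgeR adjusted p (6.6e-07) than PREX1. The sequences before the starts of PREX1 and NME4 are shown as 1 example in each direction. They hold the 250 bases upstream of the start in RefSeq, build GRCh38.p14, 5′ to 3′ on the gene's strand, with each CG dinucleotide, the site of DNA methylation, in capitals. PREX1 lies at chr20:48828000-48828249 on the minus strand and NME4 at chr16:396949-397198 on the plus strand.
PREX1: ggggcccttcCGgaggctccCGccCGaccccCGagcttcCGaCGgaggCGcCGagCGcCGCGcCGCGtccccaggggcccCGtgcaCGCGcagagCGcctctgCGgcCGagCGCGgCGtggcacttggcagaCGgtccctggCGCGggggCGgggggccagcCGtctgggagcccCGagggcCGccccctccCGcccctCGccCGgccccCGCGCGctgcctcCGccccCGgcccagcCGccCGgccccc
NME4: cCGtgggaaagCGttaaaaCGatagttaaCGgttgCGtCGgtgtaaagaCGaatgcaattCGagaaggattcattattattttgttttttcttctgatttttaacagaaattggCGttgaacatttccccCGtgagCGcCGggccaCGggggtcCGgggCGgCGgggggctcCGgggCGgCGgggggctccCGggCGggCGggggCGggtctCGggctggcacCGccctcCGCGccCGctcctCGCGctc
The PREX1 sequence holds 39 CG dinucleotides at a GC content of 84.8%, and the NME4 sequence 30 at 62.0%. A CG reads the same on both strands. The median was 19.5 over the 106 falling genes with a promoter in the table, 24 over 51 rising genes and 22 over 7144 tested genes. The median GC content of these windows was 65.2% in falling genes, 69.6% in rising genes and 65.2% in all. These are descriptions of the windows, and chromatin was not measured in these files.

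Leaving aside the unnamed locus LOC107984703, the largest fall among called genes of at least 10 CPM was in PDIA5, and DBN1 and PREX1 were among the next. PDIA5, a protein disulfide isomerase of the endoplasmic reticulum, was at 16.4 CPM in both EZH2 mutant libraries and at 2.47, 0.755 and 0 in the double mutant (log2 -3.73, SE 0.56, edgeR adjusted p = 0.00048). DBN1, which encodes the actin-binding protein drebrin, was at 33.8 and 33.3 CPM against 2.47, 4.53 and 1.74 (log2 -3.56, SE 0.38, edgeR adjusted p = 1.1e-05). PREX1 was at 49.2 and 41.7 CPM against 1.97, 6.04 and 4.07 (log2 -3.55, SE 0.31, edgeR adjusted p = 8.1e-07). In all 3 genes each double mutant library lay below each library of the other 3 lines. PREX1 fell 11.7-fold, from 45.4 ± 5.28 (SD, n = 2) to 4.03 ± 2.03 (n = 3), while wild type held 65.6 to 76.5 CPM.

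RIPOR2, an inhibitor of the small GTPase RhoA, was at 46.1 and 67.5 CPM in the EZH2 mutant and at 7.90, 9.82 and 8.14 in the double mutant (log2 -2.77, SE 0.25, edgeR adjusted p = 8.2e-07). CD300A, an inhibitory receptor of leukocytes, was at 39.9 and 32.8 CPM against 7.40, 2.27 and 5.23 (log2 -2.76, SE 0.34, edgeR adjusted p = 4.5e-05). Its EZH2 mutant libraries were the highest of all 11, since wild type held 9.52 to 12.4 CPM. REPIN1, a zinc finger protein, was at 77.8 and 90.3 CPM against 16.8, 15.1 and 17.4 (log2 -2.35, SE 0.20, edgeR adjusted p = 6.6e-07), the tightest of the 15 largest falls. The wild-type and KMT2D mutant libraries of REPIN1 lay between these 2 groups, at 27.9 to 61.0 CPM.

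USP2, a deubiquitinating enzyme, fell by 2.94 on the log2 scale (SE 0.38, edgeR adjusted p = 0.00011), from 22.5 and 18.4 CPM to 2.96, 2.27 and 2.33. APOBEC3C, a cytidine deaminase with close paralogs that make its count uncertain, fell by 2.68 (SE 0.31, edgeR adjusted p = 2.1e-05), and all double mutant libraries, at 2.33 to 6.80 CPM, were lower than all others. CARD10, a scaffold protein of NF-kB signalling, fell by 2.60 (SE 0.45, edgeR adjusted p = 0.0026), from 11.3 and 12.9 CPM to 0.581 to 3.02. C16orf74, a little-described protein, fell by 2.37 (SE 0.23, edgeR adjusted p = 3.2e-06), from 50.2 and 55.1 CPM to 7.55 to 11.8. PGGHG, a glucosidase that acts on collagen sugars, fell by 2.67 (SE 0.38, edgeR adjusted p = 0.0003), from 16.4 and 16.9 CPM to 1.97 to 3.78. TBC1D27P, a pseudogene of the TBC1 domain family and so uncertain, fell by 3.63 (SE 0.42, edgeR adjusted p = 2.1e-05).

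The other 3 of the 15 largest falls rested on fewer counts. SLC4A11, a membrane transporter, had 22 counts in the EZH2 mutant and 3 in the double mutant, a level 12.4-fold lower (95% interval 3.74 to 64.9, counting error only). In a fit of the 5 libraries alone its call ended (edgeR adjusted p = 0.0652), as did those of BIN1 (0.102) and MFGE8 (0.139). BIN1, which bends membranes, was at 12.3 and 7.45 CPM against 0.987, 3.02 and 1.16 (log2 -2.50, SE 0.53, edgeR adjusted p = 0.013). Its call ended without EZH2 mutant replicate 1 (edgeR adjusted p = 0.0864), double mutant replicate 1 (0.0553) or replicate 3 (0.0704). MFGE8, a secreted protein that binds phosphatidylserine on dying cells, was at 7.17 and 6.95 CPM against 0.987, 0.755 and 1.74 (log2 -2.51, SE 0.59, edgeR adjusted p = 0.028), and leaving out any 1 of the 5 libraries ended its call (edgeR adjusted p 0.0632 to 0.122). PDIA5, SLC4A11 and C16orf74 overlap other genes (MIR7110, ITPA and MIR1910), and reads of such pairs cannot be told apart without strand.

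**Figure D1:**
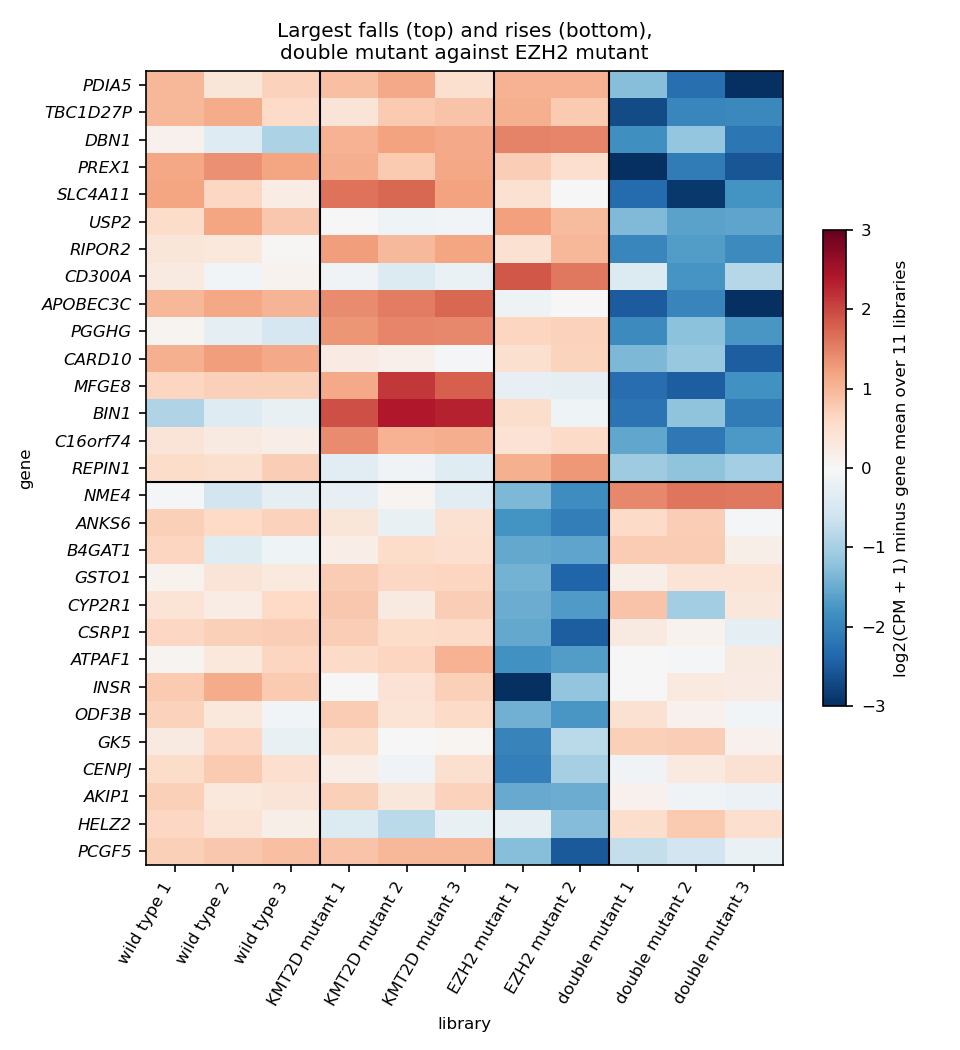
Rows are the 15 largest falls and 14 of the 15 largest rises between double mutant and EZH2 mutant, columns are the 11 libraries, and colour is log2(CPM + 1) minus the gene's mean over the libraries. In 14 of the 15 falls the double mutant libraries are the lowest of all, and in 13 of the 14 rises shown the EZH2 mutant libraries are the lowest of all.

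The largest rise among genes of at least 10 CPM was in NME4. It was at 17.4 and 11.9 CPM in the EZH2 mutant and at 128, 143 and 139 in the double mutant (log2 3.28, SE 0.24, edgeR adjusted p = 1.4e-07), with wild type at 30.9 to 44.1 and the KMT2D mutant at 36.4 to 49.0. NME4 was the only one of the 15 largest rises in which the double mutant libraries lay above all others. GSTO1, a glutathione transferase of the omega class, was at 18.4 and 8.94 CPM against 58.2, 68.7 and 68.6 (log2 2.38, SE 0.26, edgeR adjusted p = 1.1e-05), and wild type at 55.5 to 67.3 shared the double mutant's range. CSRP1, a LIM domain protein of the cytoskeleton, was at 13.3 and 6.45 CPM against 48.4, 43.0 and 32.5 (log2 2.21, SE 0.29, edgeR adjusted p = 0.00012). It did not reach the 62.8 to 67.5 CPM of wild type.

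INSR, the insulin receptor, was at 1.02 and 6.95 CPM in the EZH2 mutant and at 17.3, 21.1 and 20.3 in the double mutant (log2 1.99, SE 0.43, edgeR adjusted p = 0.015). ANKS6, a protein of the cilium, was at 2.05 and 1.49 CPM against 14.8, 16.6 and 9.30 (log2 2.96, SE 0.51, edgeR adjusted p = 0.0023). PCGF5, a subunit of Polycomb repressive complex 1, was at 23.6 and 9.43 CPM against 35.5, 39.3 and 50.6 (log2 1.5, SE 0.29, edgeR adjusted p = 0.0059), with wild type at 96.8 to 111. In all 3 genes the EZH2 mutant libraries were the lowest of the 11. Their calls ended when 1 EZH2 mutant library was left out, INSR without replicate 1 (edgeR adjusted p = 0.109), and ANKS6 and PCGF5 without replicate 2 (0.0675 and 0.168). The size of the INSR rise depended on that line, with a log2 fold change of 1.46 without replicate 1 and 4.18 without replicate 2, and that of PCGF5 was 2.12 and 0.83. In a fit of the 5 libraries alone the calls of INSR and PCGF5 ended (edgeR adjusted p = 0.0518 and 0.057), as did that of PCGF5 with the GC trend removed (0.0518).

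In the other rises shown, except HELZ2, the EZH2 mutant libraries were also the lowest of the 11. B4GAT1, a glycosyltransferase that acts on dystroglycan, rose at log2 2.39 (SE 0.44, edgeR adjusted p = 0.0039). ODF3B, named for outer dense fibres of sperm tails, rose at log2 1.95 and AKIP1, a partner of protein kinase A, at log2 1.56 (edgeR adjusted p = 0.0028 and 0.0039). ATPAF1, an assembly factor of ATP synthase, rose at log2 2.07 and GK5, of the glycerol kinase family, at log2 1.82 (edgeR adjusted p = 0.0091 and 0.02). CENPJ, a protein of the centriole, rose at log2 1.66 and HELZ2, a helicase and transcriptional coactivator, at log2 1.52 (edgeR adjusted p = 0.02 and 0.021). CYP2R1, a vitamin D hydroxylase, rose at log2 2.27 (edgeR adjusted p = 0.036). In CYP2R1 the double mutant libraries spread from 4.53 to 19.7 CPM, and its call ended on leaving out any of 7 libraries, with the highest edgeR adjusted p, 0.2, without EZH2 mutant replicate 2. The calls of B4GAT1, ODF3B, AKIP1, ATPAF1 and HELZ2 ended without EZH2 mutant replicate 2 (edgeR adjusted p 0.0557 to 0.262) and those of ATPAF1, GK5 and CENPJ without replicate 1 (0.0565 to 0.149). Leaving out a double mutant library also ended those of GK5, HELZ2 and CENPJ (0.0565 to 0.0885). CYP2R1, CENPJ and AKIP1 overlap other genes, and their reads cannot be told apart from those without strand.

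**Figure D2:**
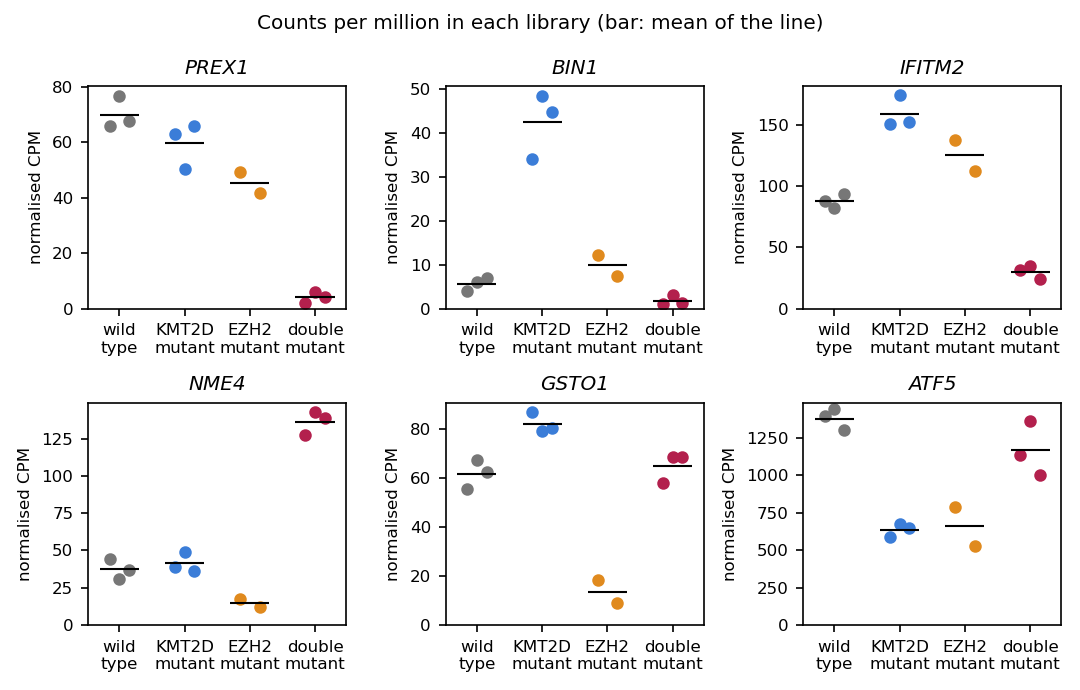
Each point is the normalised CPM of a library, the horizontal bar is the mean of the line, and each panel starts at 0. PREX1, BIN1 and IFITM2 are lowest in the double mutant, NME4 is highest there, and GSTO1 and ATF5 in the double mutant overlap or come near the wild-type values.

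The called genes were also read by which line stood apart from the rest. In 66 of the 139 falls all double mutant libraries lay below the other 8 libraries, a pattern that 3.32% of tested genes showed. In 77 falls both EZH2 mutant libraries lay above all others (10.3% of tested genes), 8 falls showed both patterns and 4 neither. Of the 63 rises, 44 had both EZH2 mutant libraries below all others (7.99% of tested genes), and 14 had the double mutant above all others (1.45%), with 2 in both and 7 in neither. These counts moved with the libraries. Without double mutant replicate 3, 44 falls had the double mutant lowest and 25 the EZH2 mutant highest, so that the order turned. Other alternatives turned it too, such as upper-quartile factors (64 and 55), the replicate number as a block (55 and 43) and thinning (46 and 39). So did leaving out EZH2 mutant replicate 1 (46 and 35) or double mutant replicate 2 (60 and 49). The order held with DESeq2 (61 and 85), limma-voom (53 and 72) and the GC trend removed (71 and 108), among others. Only other scaling factors, thinning and leaving out a library changed the levels compared. In the other alternatives, GC trend removal and the block among them, only the list of called genes changed. The 44 and 14 rises became 95 and 29 without double mutant replicate 1, and 68 and 5 without EZH2 mutant replicate 2. In all 202 called genes the libraries of the 2 lines did not overlap, which held for 30.5% of tested genes. A called gene had to differ between the lines, so that these shares are descriptions of the called genes.

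Set beside wild type, with which the EZH2 mutant and the double mutant were each compared in the same fit, the called genes read as follows. These comparisons share libraries with the one described here, and the share of all tested genes called in them is not given. The counts that follow therefore only describe the called genes. Of the 63 rises, 49 were called lower and 3 higher in the EZH2 mutant than in wild type, and 9 were called lower and 13 higher in the double mutant. Of the 139 falls, 76 were called higher and 14 lower in the EZH2 mutant, and 70 were called lower and 29 higher in the double mutant. GRIK3, a glutamate receptor subunit chosen after its values were seen, was at 98.3 and 103 CPM in the EZH2 mutant and at 29.6, 32.5 and 31.4 in the double mutant, above the 15.7 to 22.4 CPM of wild type (log2 -1.70, SE 0.20, edgeR adjusted p = 4.5e-05). FCGR2B, the inhibitory Fc receptor of B cells, was at 34.8 and 39.2 CPM against 9.38, 10.6 and 8.14 (log2 -2.0, SE 0.34, edgeR adjusted p = 0.0017), with wild type at 5.66 to 7.67. Its close paralogs make its count uncertain.

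The same loss in the other background was used to see whether the same genes changed with and without mutant EZH2. These comparisons share no library, although they share one estimate of the spread. Of the 202 genes, 50 were also called between KMT2D mutant and wild type. These are 24.8% of the first list, where 7.66% of all tested genes had the second call. They are 7.41% of the second list, where 2.29% of all tested genes had the first call. In 29 of the 50 the direction was the same, 23 lower and 6 higher in both backgrounds, and in 21 it was opposite. Over all 8813 genes the log2 fold changes correlated at Pearson's r = 0.10 and Spearman's rho = 0.13, and 56.0% had the same sign; genes are not independent replicates.

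**Figure D3:**
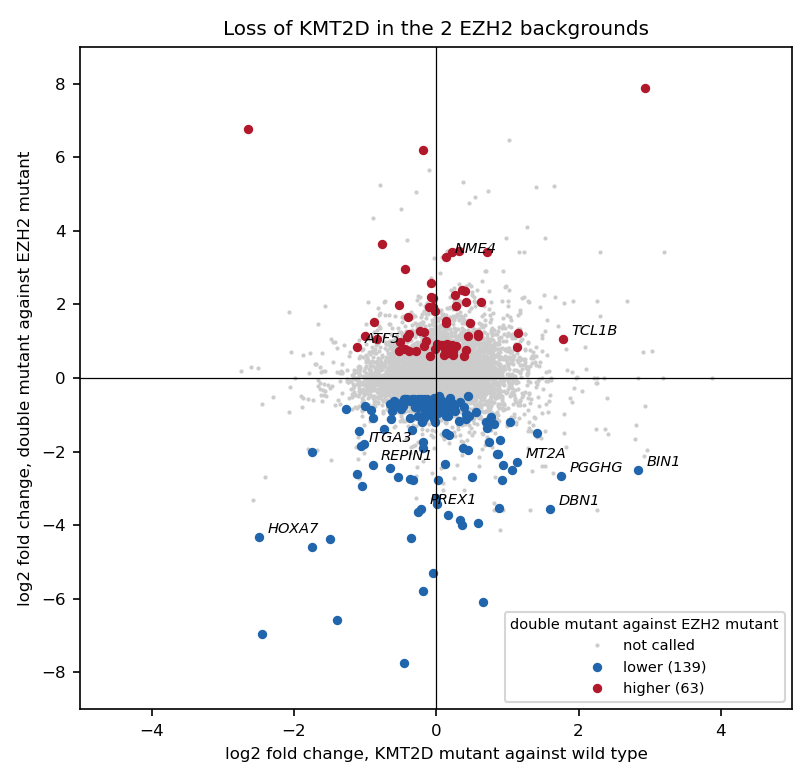
Each point is a tested gene, with the log2 fold change of KMT2D mutant against wild type on the horizontal axis and that of double mutant against EZH2 mutant on the vertical axis, and coloured points are the 63 higher and 139 lower genes of the second comparison. MPEG1, not called, lies outside the plotted range, and values beyond about 4 come from genes with few or no counts in a line. BIN1, DBN1 and PGGHG lie lower right, lower in one background and higher in the other, and HOXA7 and REPIN1 lower left, lower in both.

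Of these, 17 genes fell within EZH2 mutant cells and rose within wild-type cells. Calls in opposite directions chose them, so that a called difference between backgrounds adds nothing. In 12 of them the double mutant libraries were the lowest of all. BIN1 fell by 2.50 on the log2 scale in the first background and rose at log2 2.84 in the second, where it went from 3.96 to 6.90 CPM in wild type to 34.1 to 48.3 in the KMT2D mutant. DBN1 fell by 3.56 and rose at log2 1.60, and PGGHG fell by 2.67 and rose at log2 1.76. MT2A, a metallothionein that binds zinc, fell from 112 and 77.9 CPM to 23.7, 15.1 and 16.9 (log2 -2.29, SE 0.23, edgeR adjusted p = 3.5e-06) and rose at log2 1.14 in wild-type cells. RHOC, a small GTPase, fell at log2 -2.06 and LAT2, a transmembrane adaptor of immune receptors, at log2 -1.36 (edgeR adjusted p = 0.00017 and 5.2e-05). Both rose in wild-type cells, at log2 0.86 and 0.71. SP140, a nuclear body protein of lymphocytes, fell at log2 -1.5 and rose at 1.42, but its first call ended without EZH2 mutant replicate 2 (edgeR adjusted p = 0.224), double mutant replicate 1 (0.0821) or replicate 3 (0.137). MT2A, RHOC, LAT2 and SP140 were chosen after their values were seen, and close copies make MT2A and RHOC uncertain.

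The 4 genes that went the other way, higher within EZH2 mutant cells and lower within wild-type cells, were ATF5, PPP1R15A, INAFM1 and HELZ2. ATF5, a transcription factor of the stress response, was at 787 and 528 CPM in the EZH2 mutant and at 1133, 1363 and 999 in the double mutant (log2 0.83, SE 0.17, edgeR adjusted p = 0.0092), and fell by 1.12 in wild-type cells. PPP1R15A, which directs dephosphorylation of eIF2alpha and was picked with its values in view, was at 34.8 and 24.3 CPM against 62.2, 61.9 and 63.9 (log2 1.13, SE 0.26, edgeR adjusted p = 0.025), and fell by 1.01 in wild-type cells. Both calls within EZH2 mutant cells ended without EZH2 mutant replicate 2 (edgeR adjusted p = 0.112 and 0.198). That of PPP1R15A also ended without double mutant replicate 2 (0.0556) or replicate 3 (0.0839). Of these 4 genes at least ATF5 and PPP1R15A lie on 19q, a chromosome arm whose genes stood low in the KMT2D mutant as described below. The position of INAFM1 is not given here.

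The genes lower in both backgrounds included several at low levels. The genes of this paragraph were chosen after their values were seen. HOXA7, a homeobox transcription factor, was at 19.5 and 15.4 CPM in the EZH2 mutant and at 0.493, 0 and 1.74 in the double mutant (log2 -4.33, SE 0.59, edgeR adjusted p = 0.00017), and fell by 2.49 in wild-type cells. CADPS, a priming factor of vesicle release, had 23 counts in the EZH2 mutant and 0 in the double mutant, at least 13-fold lower against a floor of 3 counts over the group, and was called lower in wild-type cells too. ITGA3, an integrin subunit, was at 49.2 and 38.7 CPM against 13.8, 14.3 and 7.55 (log2 -1.86, SE 0.25, edgeR adjusted p = 0.00018), and fell by 1.06 in wild-type cells. CPNE5, a calcium-binding copine, was at 687 and 497 CPM against 295, 320 and 346 (log2 -0.88, SE 0.16, edgeR adjusted p = 0.0029) and fell by 0.63 in wild-type cells, with the first call lost without EZH2 mutant replicate 1 (edgeR adjusted p = 0.0708). RHOBTB2, an atypical member of a small GTPase family, fell by 0.85 and by 1.26, with the first call lost on leaving out any of 4 libraries (edgeR adjusted p 0.0618 to 0.11). Among the 6 genes higher in both, TCL1B, of the TCL1 family that enhances AKT kinase, was at 102 and 100.3 CPM against 219, 224 and 189.5 (log2 1.06, SE 0.16, edgeR adjusted p = 0.00052), with log2 1.78 in wild-type cells. LRP5, a co-receptor of Wnt signalling, was also higher in both, with 0 counts in the EZH2 mutant and 73 in the double mutant, at least 14.4-fold higher against the same floor.

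The test of the difference between backgrounds called 266 genes (3.02%), 132 with a higher change within EZH2 mutant cells (1.5%) and 134 with a lower one (1.52%). Among these 266 genes, 79 lie on 19q, the arm described below. Of the 202 called genes 90 were among the 266, 30 of 63 rises and 60 of 139 falls. The 202 were called from EZH2 mutant and double mutant libraries that the test of the difference also uses, which favours such an overlap. Of the 23 genes lower in both backgrounds 2 passed the test of the difference, USP2 and REPIN1, and of the 6 higher in both none did. A difference between backgrounds that missed the threshold does not show an equal change. The 5 largest negative differences of at least 10 CPM were in BIN1 (log2 -5.34), DBN1 (-5.16), VPREB1 (-4.46), PGGHG (-4.42) and SLC4A11 (-4.41), and the 5 largest positive ones in ANKS6 (3.39), FAM167A-AS1 (3.14), NME4 (3.14), CLEC11A (2.90) and AQP3 (2.74). VPREB1, which pairs with the heavy chain in precursor B cells, had 6 counts in the EZH2 mutant and 3 in the double mutant, and did not pass within EZH2 mutant cells. In the wild-type background it went from 4.08 to 6.90 CPM to 32.2 to 42.6 CPM. CLEC11A, a secreted growth factor, was at 16.4 and 10.9 CPM against 18.3, 19.6 and 10.5 within EZH2 mutant cells, and AQP3, a water and glycerol channel, at 9.22 and 9.43 against 19.2, 12.1 and 13.4. Neither passed there, and both fell within wild-type cells, by 2.61 and 2.05. CLEC11A lies on 19q, the arm described next. The difference in VPREB1 was lost in 2 and that in FAM167A-AS1 in 1 of 20 alternatives.

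Position on the chromosome set 19q apart in the comparison between backgrounds. Within EZH2 mutant cells the 380 tested genes of 19q had a median log2 fold change of -0.02, with 6 higher and 3 lower, beside a median of -0.01 over all tested genes. Within wild-type cells the median of the same genes was -0.71, and that of the 308 genes distal to and including ZNF383 -0.81. The difference between backgrounds was called for 79 genes of the arm, 76 of them in that distal segment. In the double mutant against the EZH2 mutant, arm medians ran from -0.15 on 22q to 0.23 on 4q. The 4q value was 0.52 without EZH2 mutant replicate 2, the deeper library of that line, and the 22q value was -0.06 without replicate 1. DNA copy number was not measured in these files.

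**Figure D4:**
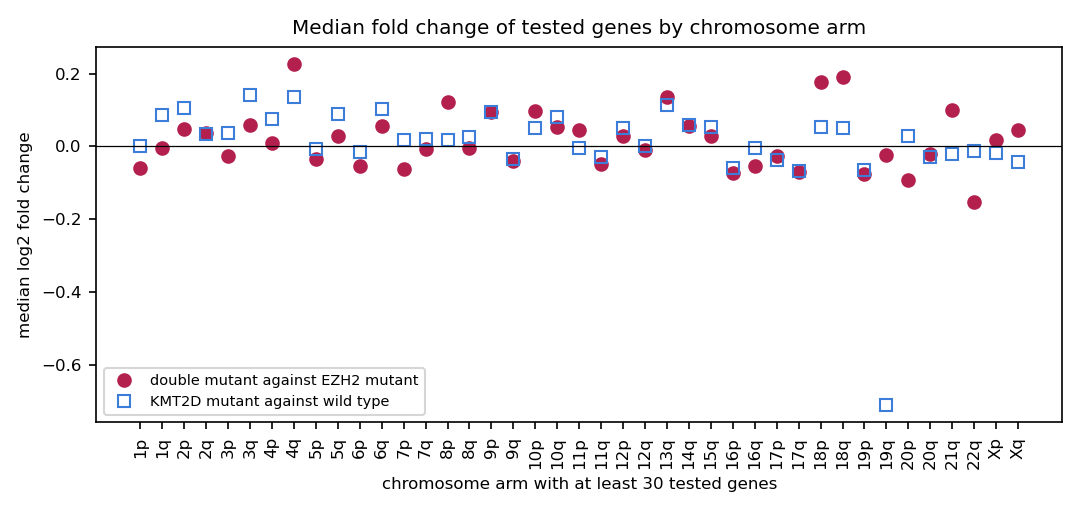
Points are the median log2 fold change of tested genes on each chromosome arm with at least 30 of them, filled for double mutant against EZH2 mutant and open for KMT2D mutant against wild type. The open square of 19q lies at -0.71 while its filled circle lies at -0.02, and the filled circles range from -0.15 to 0.23.

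Neighbouring genes called in the same direction made 6 pairs, all lower, where 1.58% of all tested genes were called lower. How many such pairs that share would give was not computed. PGGHG stood beside IFITM2 on chromosome 11, and CD300A beside GPRC5C on chromosome 17. TBC1D27P stood beside TNFRSF13B, the TACI receptor for BAFF and APRIL, also on chromosome 17. The others were TCL1A beside LOC107984703 on chromosome 14, NAPSB beside NAPSA on chromosome 19 and CBR1 beside DOP1B on chromosome 21. GPRC5C, an orphan receptor, had 47 counts in the EZH2 mutant and 3 in the double mutant, 26.6-fold lower (95% interval 8.55 to 133). CBR1, a carbonyl reductase, had 31 and 1, 52.6-fold lower (95% interval 8.76 to 2142). GPRC5C and CBR1 were chosen after their values were seen.

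The 30 lists of genes by role were read, against the shares of 0.715% higher and 1.58% lower over all tested genes and a median log2 fold change of -0.01. In 23 of the lists at least 1 member was called, and in 7 none. The lists overlap, and their counts and medians are descriptions. The median of 21 of the 30 lists kept its sign under all 21 alternatives of scaling, filter, tool and libraries, among them those of MYC targets, mitosis, glycolysis, interferon response, B-cell receptor signalling and KMT2D targets.

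Lists of chromatin regulators were read beside the 2.29% of all tested genes that were called. None of 19 tested subunits of KMT2 complexes (median log2 -0.11), of 12 Polycomb repressive complex 2 subunits (median 0.15), of 22 histone acetyltransferases and corepressors (median -0.05) or of 14 histone genes (median 0.07) was called. Of 20 Polycomb repressive complex 1 subunits 2 rose (10%), PCGF5 and SCMH1, with a median of 0.16. SCMH1 was at 49.2 and 46.2 CPM in the EZH2 mutant and at 88.8, 81.6 and 77.3 in the double mutant (log2 0.80, SE 0.18, edgeR adjusted p = 0.022), a call that ended without EZH2 mutant replicate 1 (0.103), EZH2 mutant replicate 2 (0.133) or double mutant replicate 2 (0.0517).

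Of 16 tested genes named in work on lymphoma as targets of KMT2D, 3 fell and none rose, with a median of -0.20. DUSP2, a phosphatase that ends MAP kinase signals, was at 143 and 121 CPM in the EZH2 mutant and at 70.6, 75.5 and 72.1 in the double mutant (log2 -0.85, SE 0.16, edgeR adjusted p = 0.0045). The groups did not overlap, and DUSP2 also fell by 0.50 in wild-type cells. Its call ended without EZH2 mutant replicate 1 (edgeR adjusted p = 0.0557). PTPN6, which encodes the phosphatase SHP-1, was at 252 and 212 CPM against 157, 162 and 146 (log2 -0.57, SE 0.14, edgeR adjusted p = 0.038), above the 88.8 to 107 CPM of wild type. TNFRSF13B was at 10.2 and 8.44 CPM against 0, 1.51 and 1.16 (log2 -3.43, SE 0.80, edgeR adjusted p = 0.025). The calls of PTPN6 and TNFRSF13B ended on leaving out any of 6 and of 4 libraries (edgeR adjusted p 0.073 to 0.248 and 0.0755 to 0.0841).

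Among genes of B-cell receptor signalling 10% were called and among those of the B-cell surface 11.5%. All of these calls were lower, beside 1.58% lower over all tested genes. Of 30 receptor signalling genes 3 fell and none rose (median -0.23, 24 below 0), and of 26 surface, Fc and costimulatory receptors 3 fell and none rose (median -0.23, 18 below 0). Without EZH2 mutant replicate 1, 1 fall was called in each list. CD79B, the signalling chain of the B-cell receptor, was at 4022 and 3074 CPM in the EZH2 mutant and at 2268, 2187 and 2255 in the double mutant (log2 -0.67, SE 0.16, edgeR adjusted p = 0.03). IL4R, a receptor for interleukins 4 and 13, was at 42.0 and 36.2 CPM against 18.3, 19.6 and 24.4 (log2 -0.89, SE 0.21, edgeR adjusted p = 0.028). FCGR2B, PTPN6 and TNFRSF13B were the other falls, described above. The calls of CD79B and IL4R each ended on leaving out any of 6 libraries, with the highest edgeR adjusted p without EZH2 mutant replicate 1 (0.277 and 0.144).

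In programs of B-cell stages the share called ran from 3.85% of germinal centre genes to 27.3% of light chain and precursor B-cell genes, beside 2.29% of all tested genes. Of 26 germinal centre genes only POU2AF1 was called, a coactivator of octamer-binding factors, which fell from 341 and 381 CPM to 244 to 252 (log2 -0.54, SE 0.13, edgeR adjusted p = 0.035), with a median of 0.00 over the list. Its call ended on leaving out any of 7 libraries (edgeR adjusted p 0.0543 to 0.167). Of 16 plasma cell genes only TNFRSF13B was called (median -0.22). Of 11 light chain and precursor B-cell genes TCL1B rose, while TCL1A, the other AKT coactivator of the family, fell from 3883 and 3918 CPM to 2817, 2872 and 2590 (log2 -0.50, SE 0.12, edgeR adjusted p = 0.036). The third call of that list was CD79B, and its median was -0.04. The call of TCL1A ended on leaving out any of 7 libraries (edgeR adjusted p 0.074 to 0.176). In wild-type cells TCL1A rose at log2 0.44.

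Of 28 tested genes of adhesion and homing 3 fell and 1 rose (median -0.02). The falls were PREX1, which is neither a receptor nor an adhesion molecule, and 2 chemokine receptors. CXCR5, the chemokine receptor that guides B cells into follicles, was at 34.8 and 36.2 CPM in the EZH2 mutant and at 15.3, 15.9 and 15.7 in the double mutant (log2 -1.19, SE 0.23, edgeR adjusted p = 0.0055), whereas it rose at log2 1.04 in wild-type cells. CCR6, another chemokine receptor of B cells, was at 9.22 and 17.9 CPM against 2.96, 2.27 and 1.16 (log2 -2.70, SE 0.53, edgeR adjusted p = 0.007). The calls of CXCR5 and CCR6 ended without EZH2 mutant replicate 2 (edgeR adjusted p = 0.0625 and 0.184). ITGB1, the integrin beta 1 chain, rose from 1 count to 21, 12.4-fold higher (95% interval 1.99 to 512), and leaving out any of 10 libraries ended its call (edgeR adjusted p 0.0583 to 0.201).

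Of 11 annexins, S100 and related calcium or sugar binding proteins 3 fell and none rose (median -0.18). LGALS1, which encodes galectin 1, was at 101 and 94.8 CPM in the EZH2 mutant and at 46.9, 42.3 and 34.9 in the double mutant (log2 -1.24, SE 0.18, edgeR adjusted p = 0.00047), and rose at log2 0.82 in wild-type cells. CAPG, an actin capping protein, was at 58.4 and 46.2 CPM against 19.2, 19.6 and 13.9 (log2 -1.55, SE 0.24, edgeR adjusted p = 0.0006). ANXA6, a membrane-binding annexin, was at 108 and 90.3 CPM against 51.8, 37.8 and 46.5 (log2 -1.10, SE 0.19, edgeR adjusted p = 0.0026). No removal of 1 library ended these 3 calls.

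Calls among interferon and antigen presentation genes went both ways. Of 27 interferon response genes MX1, an antiviral GTPase, rose and IFITM2, an antiviral membrane protein, fell. The median of the list was 0.52, with 18 members above 0 and 9 below. IFITM2 was at 138 and 112 CPM in the EZH2 mutant and at 31.6, 34.7 and 23.8 in the double mutant (log2 -2.05, SE 0.18, edgeR adjusted p = 8.2e-07), and rose at log2 0.86 in wild-type cells. It has near-identical family members, so its count is uncertain. MX1 was at 73.7 and 69.0 CPM against 107, 127 and 124 (log2 0.74, SE 0.17, edgeR adjusted p = 0.026), and its call ended without either EZH2 mutant library or without double mutant replicate 2 or 3 (edgeR adjusted p 0.082 to 0.133). None of 15 MHC class II genes was called (median 0.01), and of 21 MHC class I genes only the peptide-loading chaperone CALR fell (median -0.03). Of 25 CD40 and NF-kB response genes only LTB, which encodes lymphotoxin beta, was called, falling from 229 and 177 CPM to 118, 116 and 90.7 (log2 -0.90, SE 0.15, edgeR adjusted p = 0.0018), with a list median of 0.07. Wild-type LTB stood at 380 to 400 CPM, above both lines.

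**Figure D5:**
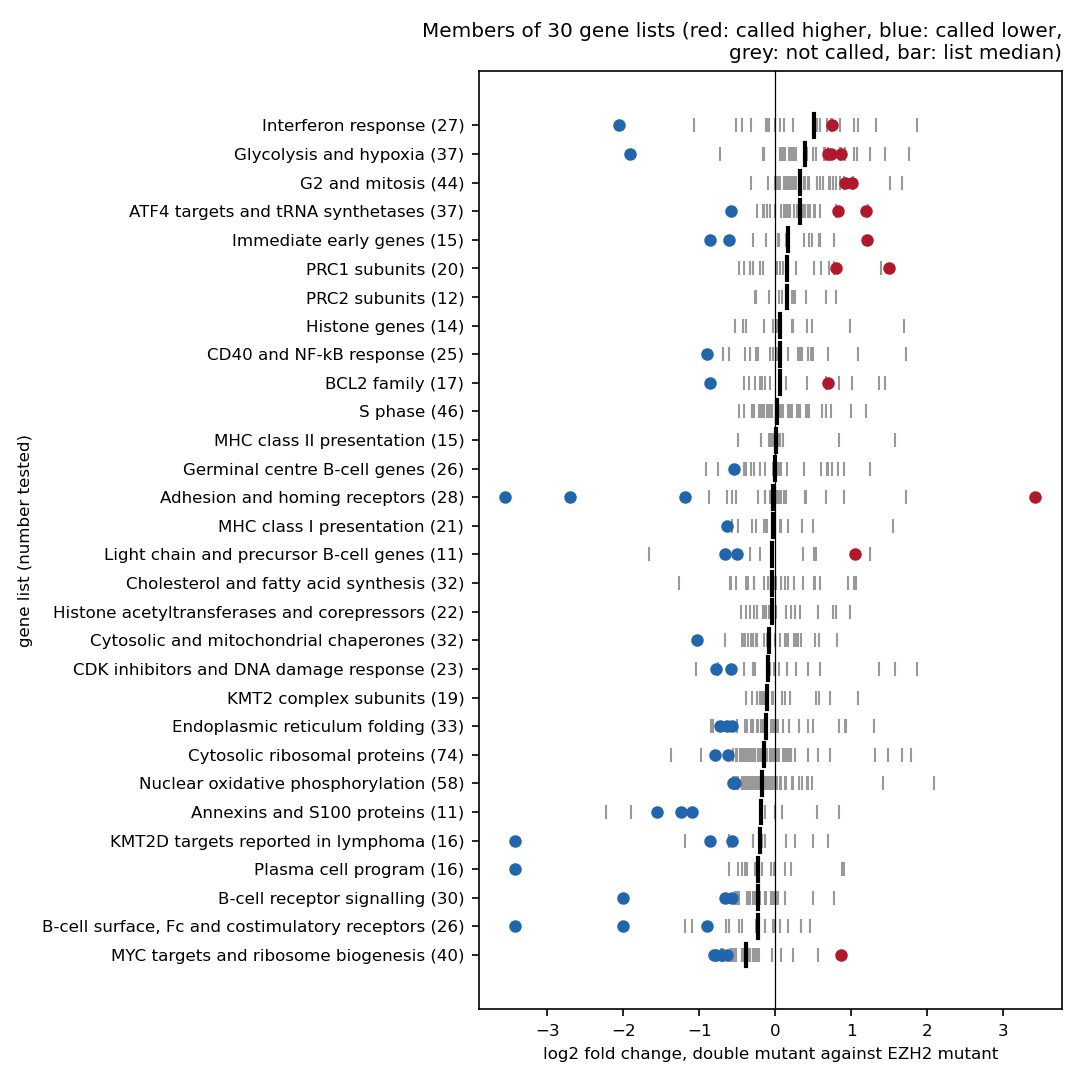
Each mark is a tested member of a list, placed by its log2 fold change of double mutant against EZH2 mutant, with called members in red (higher) or blue (lower), others in grey and the list median as a black bar. The MYC and ribosome biogenesis list has the lowest median, -0.39, and the interferon list the highest, 0.52.

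Of 40 tested MYC targets and ribosome biogenesis genes 4 fell, 1 rose and 35 did not pass. Without double mutant replicate 3, none of the falls was called. The log2 fold change of 36 lay below 0 and the median was -0.39, while the same genes had a median of 1.05 in the EZH2 mutant and 0.54 in the double mutant against wild type, which share those libraries. NOP56, a core protein of nucleolar RNPs, was at 489 and 584 CPM in the EZH2 mutant, 330, 311 and 296 in the double mutant and 206 to 312 in wild type (log2 -0.78, SE 0.16, edgeR adjusted p = 0.0093). RRP12, a ribosome export factor, was at 124 and 107 CPM against 74, 62.7 and 58.7 (log2 -0.81, SE 0.17, edgeR adjusted p = 0.012). WDR74 and MYBBP1A, both nucleolar proteins, fell by 0.64 and 0.70 (edgeR adjusted p = 0.026 and 0.028). All 4 calls ended without double mutant replicate 3 (edgeR adjusted p 0.0528 to 0.163). The call of NOP56 also ended without EZH2 mutant replicate 2 (0.0854), and those of RRP12, WDR74 and MYBBP1A without EZH2 mutant replicate 1 (0.102 to 0.163). That of WDR74 ended without KMT2D mutant replicate 3 (0.0527), and that of MYBBP1A without EZH2 mutant replicate 2 (0.0824) or double mutant replicate 1 (0.0529). NOP56 hosts small nucleolar RNAs whose reads cannot be told apart from its own.

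Of 74 cytosolic ribosomal proteins 2 fell, RPL38 and RPS21, and 55 lay below 0 (median -0.15), and their many pseudogenes make the counts uncertain. RPL38 was at 3357 and 4147 CPM in the EZH2 mutant and at 2417, 2103 and 1973 in the double mutant (log2 -0.79, SE 0.17, edgeR adjusted p = 0.017), and RPS21 fell by 0.61 (edgeR adjusted p = 0.03). Of 58 nuclear genes of oxidative phosphorylation COX7C and NDUFA2 fell, by 0.53 and 0.55 (edgeR adjusted p = 0.032 and 0.042), with a median of -0.17. The highest edgeR adjusted p after leaving out 1 library was 0.132 for RPL38, 0.145 for RPS21, 0.115 for COX7C and 0.218 for NDUFA2.

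Of 33 endoplasmic reticulum folding genes 3 fell and none rose (median -0.12), and of 32 cytosolic and mitochondrial chaperones 1 fell (median -0.08). SYVN1, the ubiquitin ligase that clears misfolded proteins, was at 650.4 and 746 CPM in the EZH2 mutant and at 469.8, 378 and 414 in the double mutant (log2 -0.73, SE 0.15, edgeR adjusted p = 0.0096). CALR, which encodes calreticulin, was at 2869 and 1983 CPM against 1586, 1714 and 1382 (log2 -0.64, SE 0.15, edgeR adjusted p = 0.03), and PDIA4, a disulfide isomerase, fell by 0.57 (edgeR adjusted p = 0.039). HSPB1, a small heat shock protein with pseudogenes, was at 917 and 770 CPM against 408, 441 and 387 (log2 -1.03, SE 0.13, edgeR adjusted p = 8.3e-05), and wild type at 1596 to 1846 was above both. The calls of SYVN1, CALR and PDIA4 ended on leaving out 1 library, with the highest edgeR adjusted p at 0.0756, 0.378 and 0.209, and that of HSPB1 did not.

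Of 37 ATF4 targets and tRNA synthetases 2 rose and 1 fell (median 0.32, 30 above 0). ATF5 was described above. CEBPG, a partner of ATF4 that also lies on 19q, was at 13.3 and 24.8 CPM in the EZH2 mutant and at 37.0, 45.3 and 58.1 in the double mutant (log2 1.20, SE 0.31, edgeR adjusted p = 0.048). VARS1, the valyl-tRNA synthetase, was at 437 and 316 CPM against 248 to 252 (log2 -0.58, SE 0.15, edgeR adjusted p = 0.039). The calls of CEBPG and VARS1 each ended on leaving out any of 7 libraries (edgeR adjusted p 0.0509 to 0.264 and 0.0593 to 0.395).

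Glycolysis and hypoxia genes lay mostly above 0, in 32 of 37 members (median 0.39), with 3 called higher and 1 lower. LDHA, lactate dehydrogenase A, was at 566 and 815 CPM in the EZH2 mutant and at 956, 1251 and 1570 in the double mutant (log2 0.86, SE 0.21, edgeR adjusted p = 0.039). PFKFB4, which sets the level of an activator of glycolysis, was at 111 and 88.9 CPM against 169, 171 and 152 (log2 0.73, SE 0.18, edgeR adjusted p = 0.035), and BNIP3, a mitochondrial protein of the BCL2 family, rose at log2 0.69 (edgeR adjusted p = 0.018). HK1, hexokinase 1, went the other way, from 95.2 and 63.5 CPM to 16.8, 22.7 and 23.2 (log2 -1.91, SE 0.23, edgeR adjusted p = 4.5e-05), below the 59.8 to 72.4 CPM of wild type. The call of HK1 held on leaving out each library, and those of LDHA, PFKFB4 and BNIP3 did not, with the highest edgeR adjusted p at 0.297, 0.197 and 0.144. LDHA has pseudogenes, and its count is uncertain. None of 32 cholesterol and fatty acid synthesis genes was called (median -0.04).

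Mitotic genes lay above 0 in 41 of 44 members (median 0.33), and 2 were called higher and none lower. PTTG1, which encodes securin and has a close copy, was at 230.4 and 361 CPM in the EZH2 mutant and at 419.5, 693 and 692 in the double mutant (log2 1.01, SE 0.22, edgeR adjusted p = 0.026). KIF20A, a kinesin of late mitosis, was at 16.4 and 20.4 CPM against 34.5, 35.5 and 37.2 (log2 0.92, SE 0.23, edgeR adjusted p = 0.035). None of 46 S phase genes was called (median 0.03). Without EZH2 mutant replicate 1, the edgeR adjusted p of PTTG1 and KIF20A was 0.205 for both, and other removals ended these calls too (0.0539 to 0.12).

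None of 23 CDK inhibitors and DNA damage response genes rose (median -0.09). AEN, a nuclease that promotes cell death, fell. It was at 119 and 114 CPM in the EZH2 mutant and at 75.0, 71.8 and 57.0 in the double mutant (log2 -0.78, SE 0.17, edgeR adjusted p = 0.016). Of 17 BCL2 family genes BNIP3 rose and BIK, a promoter of cell death, fell from 326 and 234 CPM to 161, 178 and 122 (log2 -0.86, SE 0.17, edgeR adjusted p = 0.0065), with a list median of 0.06. Of 15 immediate early genes and signal brakes DUSP2 and IER2 fell and TSC22D3, a target of glucocorticoids, rose from 23.6 and 20.4 CPM to 49.8, 48.3 and 51.7 (log2 1.21, SE 0.22, edgeR adjusted p = 0.0032), with a median of 0.17. IER2, a short-lived transcription regulator, fell by 0.61 (edgeR adjusted p = 0.035). Leaving out 1 library ended each of these calls, with the highest edgeR adjusted p at 0.109 for AEN, 0.111 for BIK, 0.186 for IER2 and 0.0657 for TSC22D3.

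Some calls given above depended on the fit. In the 5 libraries alone, 31 of 87 called genes described lost their call (edgeR adjusted p 0.0501 to 0.171). Besides SLC4A11, BIN1, MFGE8, INSR and PCGF5 these were CENPJ, CYP2R1 and HELZ2 among the largest rises, and RHOBTB2 and SP140. The others were AEN, CALR, CD79B, CEBPG, COX7C, IER2, IL4R, KIF20A, LDHA, MYBBP1A, NDUFA2, PDIA4, POU2AF1, PTPN6, PTTG1, RPS21, RRP12, TCL1A, TNFRSF13B, VARS1 and WDR74. Thinning to equal depth also ended the calls of ATPAF1, MX1 and SCMH1 (0.051 to 0.098), and limma-voom that of GK5 (limma adjusted p = 0.0741). The call of ITGB1 ended with limma-voom (0.0563), with DESeq2 (DESeq2 adjusted p = 0.209), with RLE factors (edgeR adjusted p = 0.0506) and with the replicate number as a block (0.0999). Leaving out 1 library moved the log2 fold change of CENPJ between 1.30 and 2.59, of GK5 between 1.43 and 2.89 and of HELZ2 between 0.92 and 2.04. For PDIA5 it lay between -5.36 and -3.15, for HOXA7 between -5.56 and -3.92 and for TNFRSF13B between -3.95 and -2.70. For CCR6 it lay between -3.04 and -2.05 and for CEBPG between 0.89 and 1.81.

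Base composition moved with the called genes. The median GC content of the last 500 bases of the transcript was 52.4% in 137 falling genes, 44.0% in 63 rising genes and 44.8% in 8510 tested genes. With a trend of the counts on this GC content removed, 189 of the 202 calls were kept. Whether base composition took part in single changes beyond that was not tested.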

How the data were processed

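Messenger RNA of 4 OCI-Ly7 lines was measured by MARS-seq from 20 ng of total RNA, per the labels' protocols. Per the submitters' processing notes the tools were STAR 2.7.0f, cutadapt 1.15, Trim Galore 0.6.0 and FastQC, and DESeq2 is named without a role. The deposited table holds counts per gene, 28278 genes in 11 libraries, whole numbers that its name calls corrected, without saying for what. The counting program, build, annotation and strand are not given in the sources used here. EZH2 mutant replicate 3 was not analysed here.

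The test was edgeR 4.0.16 in R 4.3.3, its robust quasi-likelihood test with TMM factors and filterByExpr by line with a minimum count of 10, in 1 fit of all 11 libraries with 1 term per line. P-values were adjusted by Benjamini-Hochberg over 8813 genes, threshold 0.05. CPM are normalised by TMM, and 3 counts are 1.37 to 2.68 CPM in the 5 libraries. Where a group had 3 or fewer counts, folds are ratios of summed counts with an exact 95% interval, or bounds against 3 counts.

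Named genes were EZH2, KMT2D, the 15 largest changes each way among called genes of at least 10 CPM whose libraries did not overlap, 5 each way for the difference between backgrounds, and up to 4 called members per list by adjusted p, passing over unnamed genes. Of these, 1 of the rises and 1 list member are not reported here. The genes, 35 lists (30 of pathways, 5 of markers) and tests were chosen with earlier results of these data known. Alternatives were RLE and upper-quartile factors, no and a stricter filter, DESeq2 1.42.0, limma-voom (limma 3.58.1), only the 5 libraries, a replicate block, GC trend removal, thinning and leaving out each library. No libraries were duplicates, since the chi-square per degree of freedom between libraries of a line was 3.36 to 8.89. Figures were drawn with Python 3.11.15, pandas 2.3.3 and matplotlib 3.10.9.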

Additional observations from a re-analysis of the deposited data

Results flagged for a closer look

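The change that goes with loss of KMT2D differed between the EZH2 mutant and the wild-type background in 56 named genes. The criterion was edgeR's quasi-likelihood test of the difference with Benjamini-Hochberg adjustment under 0.05, which 3.02% of all tested genes passed. Most of the genes were named for the change within EZH2 mutant cells, whose libraries this test shares, and some for the difference itself. Passing was thus favoured by the choice of genes, and the count is a description. The values are the log2 fold change of double mutant against EZH2 mutant minus that of KMT2D mutant against wild type. The genes with a fall within EZH2 mutant cells among the 15 largest were -3.91 for PDIA5, -3.37 for TBC1D27P, -5.16 for DBN1, -3.33 for PREX1, -4.41 for SLC4A11, -1.90 for USP2, -3.69 for RIPOR2, -2.44 for CD300A, -3.18 for APOBEC3C, -4.42 for PGGHG, -3.57 for MFGE8, -5.34 for BIN1, -3.31 for C16orf74 and -1.46 for REPIN1. Among the 15 largest rises the differences were 3.14 for NME4, 3.39 for ANKS6, 2.03 for B4GAT1, 1.97 for GSTO1, 2.28 for CSRP1, 2.51 for INSR, 1.67 for ODF3B, 2.06 for CENPJ, 1.42 for AKIP1, 2.40 for HELZ2 and 1.37 for PCGF5. Genes named for the difference itself, without a call within EZH2 mutant cells, were -4.46 for VPREB1, 3.14 for FAM167A-AS1, 2.90 for CLEC11A and 2.74 for AQP3. Among lymphoid, adhesion and membrane genes it was -0.73 for POU2AF1, -0.88 for CD79B, -0.81 for LTB, -1.16 for IL4R, -0.94 for TCL1A, -2.23 for CXCR5, -2.05 for LGALS1, -1.72 for CAPG, -2.91 for IFITM2 and 1.27 for MX1. Among genes of chromatin, growth, stress and metabolism it was 1.24 for SCMH1, -0.90 for RRP12, -1.04 for RPL38, 1.16 for PTTG1, -1.71 for HK1, 1.01 for PFKFB4, 1.95 for ATF5, 1.58 for CEBPG, -0.75 for SYVN1 and -1.17 for HSPB1. Among genes chosen after their values were seen it was -3.43 for MT2A, -2.93 for RHOC, -2.60 for GRIK3, -2.92 for SP140, -2.07 for LAT2, -5.24 for CBR1 and 2.14 for PPP1R15A. Of these genes ATF5, CEBPG, CLEC11A and PPP1R15A lie on 19q, whose genes had a median log2 fold change of -0.71 between KMT2D mutant and wild type.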

How the results depend on the processing

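In the double mutant against the EZH2 mutant 202 genes were called, 63 higher and 139 lower. Without a filter these were 381, 154 and 227, and within the 5 libraries alone 92, 32 and 60. With the GC trend removed 327 were called, 147 of them higher, limma-voom called 41 higher, and thinning to equal depth left 85 lower. DESeq2 called 208, with 179 of the 202 kept. Leaving out 1 library gave 99 to 242 called, 29 to 126 higher and 63 to 143 lower. The test of the difference between backgrounds called 266 genes, and without a filter 482, of them 294 higher. With the GC trend removed it called 472, with 262 higher and 210 lower, and thinning left 88 lower. Leaving out 1 library gave 147 to 309 called, 67 to 182 higher and 77 to 127 lower, with the lowest totals without EZH2 mutant replicate 2 (147), KMT2D mutant replicate 1 (153) and KMT2D mutant replicate 3 (159). KMT2D mutant against wild type called 184 higher with DESeq2, and 441, 180 higher and 261 lower, after thinning. Leaving out 1 library gave 339 to 802 called there, 142 to 342 higher and 194 to 477 lower. Leaving out 1 library of either line moved the median log2 fold change of 19q between -0.10 and 0.13, of 22q between -0.208 and -0.0613, and of 4q between 0.11 and 0.52. CLEC11A, not called within EZH2 mutant cells, ranged from -0.0251 without EZH2 mutant replicate 2 to 0.55, and so reversed. A fit of fewer lines was not run for the difference between backgrounds, which needs all 4. The causes of these moves were not tested, beyond the fewer libraries or other genes tested by construction.

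Of 87 called genes described, 35 kept their call on leaving out each library and 52 lost it with at least 1, of them 37 without EZH2 mutant replicate 1, 35 without EZH2 mutant replicate 2 and 33 without double mutant replicate 3. Of the 87, 31 lost it in the 5 libraries alone, 20 after thinning, 18 under the replicate block, 13 with limma-voom, 4 with the GC trend removed, 4 with upper-quartile factors, 2 with DESeq2, 2 with a stricter filter and 1 with RLE factors. With the replicate number as a block, 151 genes were called, 57 higher and 94 lower, of which 140 were among the 202. Deviations of EZH2 mutant and double mutant libraries with the same number correlated at -0.08 and -0.29, so the numbers were not taken to pair these samples. Over all pairs of lines such values ran from -0.289 to 0.376, with 0.376 and 0.216 for wild type with EZH2 mutant and 0.287, 0.206 and 0.0662 for KMT2D mutant with double mutant. Over all alternatives, 33 to 78 falls had the double mutant below all other lines and 25 to 133 had the EZH2 mutant above them, and 21 to 103 rises had the EZH2 mutant below and 5 to 29 the double mutant above. For these counts the tool, filter, block and GC trend changed only which genes were called, not the levels compared. Depth limits what low genes show, since 3 counts were up to 2.68 CPM in the shallowest of the 5 libraries.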
